A study of Mus musculus with 6 samples.

Results

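The 9 genes Slit2, Slit3, Ntn1, Ntn4, Robo1, Robo2, Robo4, Neo1 and Unc5b encode secreted guidance cues and their cell-surface receptors that have roles in mammary ducts. They were picked by symbol from the deposited read counts, and all 9 were found among 34590 symbols and passed the filter on low counts among 17345 genes tested. The counts came from 3 pairs of contralateral number 4 mammary glands, each pair from 1 host mouse, grafted with WT.EGFP+ epithelium on the left and Adamts18-/-.EGFP+ epithelium on the right. Adamts18 encodes a secreted protease, and the comparison asked how transcription differed in glands whose grafted epithelium lacked it. The study's transplants went into fat pads cleared of their own epithelium, so that vessels, fat and connective tissue were those of the host, and the labels of these libraries give no host strain, age or time after grafting. The labels call the material GFP+ mammary epithelial cells obtained by FACS, whereas the study's text speaks of profiled glands. Every WT graft was a left gland, and genotype and body side therefore cannot be told apart.

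Slits are large secreted proteins that bind Robo receptors, through which they repel axons and, in the mammary gland, restrain ductal branching and keep the cell layers of the duct together. Netrins are laminin-related secreted proteins. Netrin-1 attracts or repels cells according to the receptor it meets, which can be Neogenin (Neo1), Dcc or an Unc5 protein, and in the end buds of growing ducts netrin-1 and Neogenin hold the outer cap cells to the inner body cells. Netrin-4 is a basement membrane protein that binds laminins, while Robo4 and Unc5b are best known from the endothelium of blood vessels.

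Total counts ranged from 53875123 to 71595924 per library, so that 3 reads corresponded to 0.0419 to 0.0557 CPM (reads of a gene relative to the scaled total of its library), and every member lay far above this floor in every library. Adamts18 itself, the check of the labels, measured 3.61, 9.92 and 6.80 CPM on the WT side of mice 1, 2 and 3, and 2.75, 4.87 and 3.29 CPM on the Adamts18-/- side, with the lower value on the mutant side in all 3 pairs (log2 fold change -0.83, SE 0.194, edgeR quasi-likelihood test, unadjusted p = 0.00922, adjusted p = 0.987). Adamts18 was not called without the mouse as a block (-0.90, unadjusted p = 0.0767), without mouse 2 (-0.72, unadjusted p = 0.0582) or with scaling to 20 pan-epithelial genes (-0.37, unadjusted p = 0.256). The mutant allele of the study lacks only some exons, and the study also found Adamts18 transcripts in the WT stroma around mutant grafts. A count of 0 is therefore not required on the mutant side, and the part of each in the remaining reads was not tested. Markers of other cells were abundant in all 6 libraries. The summed level of 8 fibroblast genes (led by Col3a1 and Dcn) was 8925 to 12004 CPM in WT and 10971 to 12305 CPM in Adamts18-/- glands, and that of 6 adipocyte genes (led by Fabp4 and Adipoq) was 4935 to 9353 and 3819 to 9479 CPM. The corresponding sums were 1636 to 2387 and 1216 to 1653 CPM for 20 pan-epithelial genes (led by Krt19 and Krt18), 1326 to 2259 and 894 to 1650 CPM for 11 myoepithelial genes (led by Acta2 and Myh11), and 844 to 1169 and 717 to 1168 CPM for 10 endothelial genes (led by Pecam1 and Vwf). No gene of these lists was at 0 in all libraries, and in each library the summed fibroblast and adipocyte markers each exceeded the summed pan-epithelial markers. In such bulk libraries fewer cells of a type and less RNA per cell cannot be told apart.

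The stretches of DNA just upstream of the annotated starts are shown for the 2 members that were lower on the mutant side in all 3 mice, Robo4 and Unc5b, and for a ligand and a receptor, Slit2 and Neo1, that share with Slit3 a paired difference above 0 in mouse 2 and below -0.5 on the log2 scale in mouse 3. The sequences are those of RefSeq (GRCm38.p6), 5′ to 3′ on the strand of the gene, and capitals mark GC boxes (GGGCGG), ETS cores (GGAA) and TATA boxes (TATAAA) found on either strand. They lie at chr9:37401722-37401896 (+) for Robo4, chr10:60831582-60831831 (-) for Unc5b, chr5:47982905-47983137 (+) for Slit2 and chr9:59036442-59036691 (-) for Neo1.
Robo4: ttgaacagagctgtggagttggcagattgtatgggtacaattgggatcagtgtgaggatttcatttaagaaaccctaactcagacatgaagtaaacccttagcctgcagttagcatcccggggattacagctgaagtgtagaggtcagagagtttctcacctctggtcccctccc
Unc5b: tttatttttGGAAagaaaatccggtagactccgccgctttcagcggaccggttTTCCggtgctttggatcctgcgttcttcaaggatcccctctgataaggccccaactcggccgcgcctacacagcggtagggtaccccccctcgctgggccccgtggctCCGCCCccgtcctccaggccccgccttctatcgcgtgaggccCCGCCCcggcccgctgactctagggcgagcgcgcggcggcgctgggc
Slit2: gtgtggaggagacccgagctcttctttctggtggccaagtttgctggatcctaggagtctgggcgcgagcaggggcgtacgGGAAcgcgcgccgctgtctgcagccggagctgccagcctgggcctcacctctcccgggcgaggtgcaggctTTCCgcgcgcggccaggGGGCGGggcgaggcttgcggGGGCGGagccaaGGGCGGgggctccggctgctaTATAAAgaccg
Neo1: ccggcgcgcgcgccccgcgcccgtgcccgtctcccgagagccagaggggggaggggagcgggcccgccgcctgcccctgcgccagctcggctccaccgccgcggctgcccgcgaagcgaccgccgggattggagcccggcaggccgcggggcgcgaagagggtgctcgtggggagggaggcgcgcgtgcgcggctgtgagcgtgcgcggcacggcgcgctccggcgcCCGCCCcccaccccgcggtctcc
The Robo4 stretch was unlike the other 3 in composition. Its 175 bases, cut at the start of the GENCODE gene, held 47.4% G and C with 1 CpG and none of the 3 motifs. The uncut 250 bases of Robo4 held 49.6% G and C, 2 CpGs and 3 ETS cores, all of these cores past that start. The 250 bases before Neo1 held 83.2% G and C, a higher percentage than in 99.6% of the 32851 mouse promoter stretches of that length. They also held 45 CpGs and 1 GC box but no ETS core or TATA box. The Slit2 stretch, cut in the same way, held 3 GC boxes, 2 ETS cores and 1 TATA box, and that of Unc5b held 2 GC boxes and 2 ETS cores. A GC box occurred in 32.7% of all promoter stretches of 250 bases and in 20.2% of those of 175 bases, and an ETS core in 93.4% and 85.9%. These matches describe the letters and show no binding.

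Slit2 and Slit3 each carry a copy of the microRNA miR-218 in an intron, on the same strand, and the mature sequences are given because the ligand genes are the hosts of this hairpin. Capitals mark the seed, bases 2 to 8, and the sequences are those of RefSeq (GRCm38.p6).
mmu-miR-218-5p: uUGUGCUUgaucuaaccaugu
mmu-miR-218-1-3p: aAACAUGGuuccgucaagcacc
mmu-miR-218-2-3p: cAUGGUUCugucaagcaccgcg
The 5p arm is identical from both hosts and lies at chr5:48223966-48223986 (+) in Slit2 and at chr11:35616840-35616860 (+) in Slit3, while the 3p arms, at chr5:48224005-48224026 (+) and chr11:35616882-35616903 (+), differ in their seeds. Mir218-1 and Mir218-2 had 2 and 1 reads over all 6 libraries, which were not made to capture mature microRNAs, so that the counts below are those of the host mRNAs only.

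Per kilobase of mRNA, Slit3 was the most abundant member and Robo2 the least. Dividing CPM by the length of the longest protein-coding transcript gave 29.8 ± 8.25 CPM per kb for Slit3 in WT glands (SD, n = 3) and 0.340 ± 0.138 CPM per kb for Robo2. Between them lay a group of 4 genes with Ntn1 at 14.1 ± 2.90, Robo4 at 14.1 ± 3.26, Neo1 at 11.7 ± 1.84 and Ntn4 at 10.4 ± 0.904 CPM per kb, whose WT ranges overlapped from one to the next. A second group comprised Unc5b at 2.92 ± 0.660, Slit2 at 2.30 ± 0.406 and Robo1 at 2.05 ± 0.195 CPM per kb, again with overlapping ranges. The WT range of Slit3 did not reach that of Ntn1, that of Ntn4 did not reach that of Unc5b, and that of Robo1 did not reach that of Robo2. In Adamts18-/- glands the order was the same, except that Robo4 (12.4 ± 4.49 CPM per kb) stood above Ntn1 (11.5 ± 5.57 CPM per kb). With the length taken over all annotated exons, a choice made after seeing the data, Ntn4 and Neo1 changed places in WT (10.2 and 9.91 CPM per kb), as did Robo1 and Slit2 (0.939 and 0.903 CPM per kb). In that setting Unc5b (2.74 CPM per kb) separated from Slit2 and Robo1, and Robo2 was at 0.172 CPM per kb. The 3 steps given above held, and no other annotated gene overlaps the exons of any member.

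**Figure D1:**
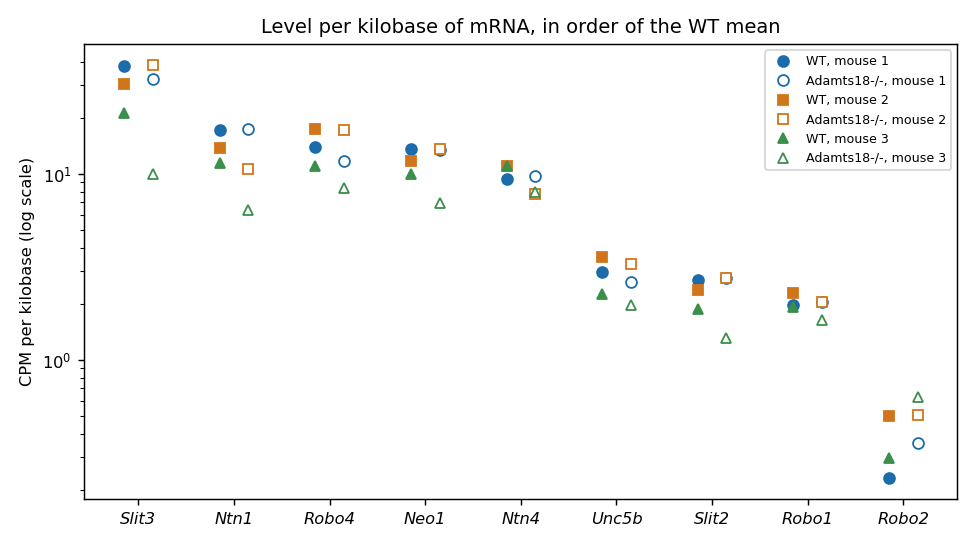
Level of each member in CPM per kilobase of mRNA (log axis) in the 6 glands, with WT and Adamts18-/- glands as separate symbols and genes in order of their WT mean. Slit3 (29.8 CPM per kb in WT) stands above a group of 4 genes near 10 to 14, a group of 3 near 2 to 3 follows, and Robo2 lies at 0.340.

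The levels of the Slit ligands differed more between mice than between genotypes, with 75.3% of the variance of log2 CPM between mice and 5.69% between genotypes for Slit3, and 82.9% and 1.41% for Slit2. Over all genes tested the medians were 67.3% and 5.98%, so that such a gap is not particular to the Slits. Slit3 (chr11:35121224-35708507, + strand, GRCm38) measured 197, 159 and 111 CPM in WT glands (always in the order of mice 1, 2 and 3) and 169, 201 and 51.9 CPM in Adamts18-/- glands. The mutant gland was thus lower in mice 1 and 3 and higher in mouse 2, and the gland of mouse 3 was the lowest of its group on both sides. Slit2 (chr5:47983138-48307733, + strand) measured 26.6, 23.6 and 18.6 CPM in WT and 27.2, 27.3 and 13.0 CPM in Adamts18-/- glands, with the only lower mutant value in mouse 3. The mean difference was -0.32 on the log2 scale for Slit3 (95% interval -1.07 to 0.43, edgeR quasi-likelihood test, unadjusted p = 0.317) and -0.09 for Slit2 (-0.51 to 0.33, unadjusted p = 0.604). Both intervals span 0. Without mouse 3 the sign turned, to 0.07 for Slit3 and 0.13 for Slit2. Of 13 marker lists, that of Schwann cells lay nearest to Slit3 and that of macrophages nearest to Slit2, and both were picked for this. Summed Schwann cell markers had paired log2 differences of -0.39, 0.34 and -0.69, and those of macrophages 0.01, 0.25 and -0.34. Those of the more abundant fibroblast list were 0.04, 0.43 and 0.18, but its genes parted in mouse 3. There Col1a1, Col1a2 and Col3a1 lay above 0 (0.24, 0.15 and 0.81). Dcn, Lum, Dpt, Pdgfra and Fbln1 lay below 0 (-0.84, -0.55, -0.55, -0.50 and -1.56). The part of these cells in the Slit values was not tested.

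The netrin ligands had lower mutant values in mice 2 and 3 and nearly equal values in mouse 1. Ntn1 (chr11:68209364-68400823, - strand) measured 101, 80.9 and 67.0 CPM in WT and 102, 62.2 and 37.6 CPM in Adamts18-/- glands. Ntn4 (chr10:93640681-93747207, + strand) measured 34.2, 40.0 and 39.9 CPM in WT and 35.5, 28.5 and 29.1 CPM in Adamts18-/- glands. The groups of both genes overlap because of mouse 1, where the paired difference was 0.02 for Ntn1 and 0.05 for Ntn4 on the log2 scale. The log2 fold change was -0.40 for Ntn1 (95% interval -0.85 to 0.06, edgeR unadjusted p = 0.0747) and -0.30 for Ntn4 (-0.65 to 0.05, unadjusted p = 0.0785). Neither passed the thresholds used for calls, a fold change below 0.8, or above the inverse of 0.8, at an unadjusted p below 0.05. Without mouse 1 both did, at -0.61 (unadjusted p = 0.0193) for Ntn1 and -0.47 (unadjusted p = 0.0218) for Ntn4, and Ntn1 also did with the DESeq2 Wald test (-0.40, unadjusted p = 0.0360) and with no filter on low counts (-0.41, unadjusted p = 0.0490). Without mouse 3 Ntn1 was at -0.17 (unadjusted p = 0.196) and Ntn4 at -0.21 (unadjusted p = 0.194), and without mouse 2 Ntn4 was at -0.20 (unadjusted p = 0.295). Summed epithelial markers were also lower in the mutant glands of these 2 mice. The paired log2 differences were -0.09, -0.75 and -0.53 for the pan-epithelial list (20 of 20 genes below 0, 6 called lower). They were -0.30, -0.45 and -0.59 for the myoepithelial list (11 of 11 below 0, 9 called lower). For 7 hormone-sensing luminal genes they were -0.20, -0.43 and -0.60 (6 below 0, 3 called lower). The secretory luminal list had 0.21, -0.97 and -0.62 (7 tested, 6 below 0, 1 called lower). Of all genes tested, 1.84% were called lower. All these sums but the secretory luminal one were lower in mouse 1 as well, where the netrins were not, but single genes of the lists parted there. Of the pan-epithelial list, Krt19, Krt18, Krt8 and Krt7 were lower (-0.40, -0.17, -0.17 and -0.15). Epcam, Cdh1, Esrp1 and Grhl2 were higher (0.28, 0.26, 0.30 and 0.22). Of the myoepithelial list, Acta2 and Myh11 were lower (-0.28 and -0.51) and Krt5 and Krt14 higher (0.14 and 0.02). The part of these markers in the netrin values was not tested.

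**Figure D2:**
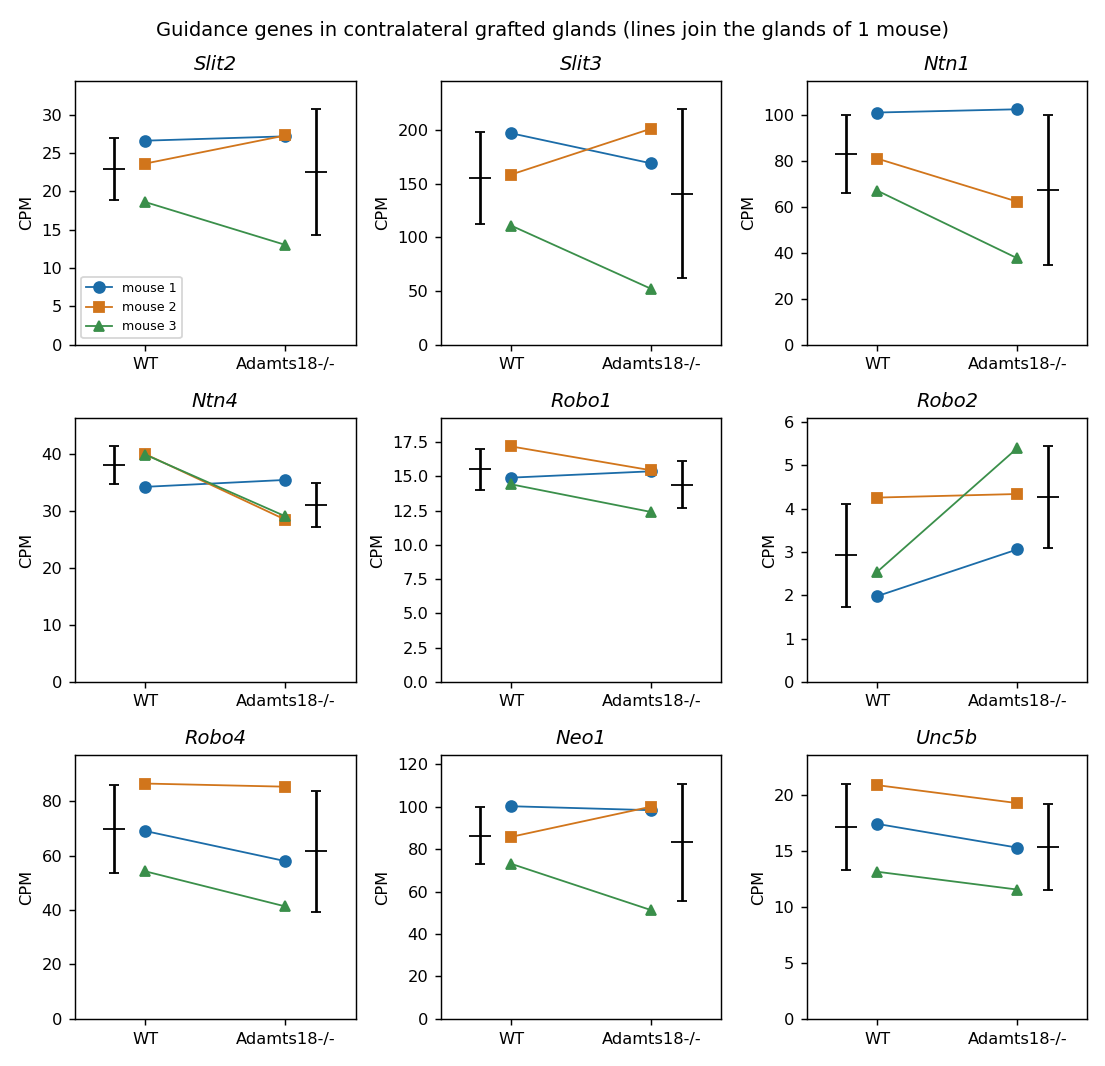
CPM of the 9 members in the WT and Adamts18-/- gland of each mouse, 1 panel per gene with its own axis from 0 and a line joining the contralateral glands of 1 mouse. Bars beside the points are the mean and SD of 3 glands. The lines rise in mouse 2 and fall in mouse 3 for Slit2, Slit3 and Neo1, fall in mice 2 and 3 for Ntn1 and Ntn4, and run from the lower to the higher value in all 3 mice for Robo2, whose difference in mouse 2 lay below 0 with library size scaling.

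Of the Robo family, Robo4 and Robo2 stood on opposite sides of 0 and Robo1 varied little. Robo4 (chr9:37401897-37415115, + strand), the endothelial receptor, measured 69.1, 86.5 and 54.2 CPM in WT and 58.0, 85.3 and 41.3 CPM in Adamts18-/- glands. The mutant value was the lower in each pair, by 0.25, 0.02 and 0.39 on the log2 scale in mice 1, 2 and 3, with a difference in mouse 2 that was close to 0 (log2 fold change -0.22, 95% interval -0.47 to 0.03, edgeR unadjusted p = 0.0699). Without mouse 2 it passed the thresholds at -0.32 (unadjusted p = 0.0332), and without mouse 3 it was at -0.13 (unadjusted p = 0.205). The summed endothelial markers had paired log2 differences of -0.22, -0.00 and -0.24, with 10 of 10 genes below 0 and 0 called (edgeR, 1 gene at an unadjusted p under 0.05), and those of the adipocyte markers were -0.19, 0.04 and -0.37. Their part in the Robo4 values was not tested. Robo1 (chr16:72308306-73046095, + strand), the main Slit receptor of the basal layer, measured 14.9, 17.2 and 14.4 CPM in WT and 15.4, 15.4 and 12.4 CPM in Adamts18-/- glands. These 6 values had the smallest spread of any member, with an SD of 0.154 on the log2 scale, and the log2 fold change was -0.11 (95% interval -0.38 to 0.16, edgeR unadjusted p = 0.342).

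Robo2 (chr16:73891839-74411825, - strand) was the only member with a log2 fold change above 0. It measured 1.98, 4.26 and 2.54 CPM in WT and 3.06, 4.34 and 5.40 CPM in Adamts18-/- glands, which correspond to 138, 261, 143, 160, 263 and 332 reads. The mutant gland had the higher value in all 3 mice, by 0.62, 0.03 and 1.08 on the log2 scale, although in mouse 2 the values were nearly equal. The log2 fold change was 0.58 (95% interval -0.08 to 1.24, edgeR unadjusted p = 0.0725), and without mouse 2 it was 0.86 (unadjusted p = 0.0300) and passed the thresholds. Without mouse 3 it was 0.33 (unadjusted p = 0.204), and with scaling to library size alone the difference in mouse 2 lay below 0. Within a library the ratio of Robo1 to Robo2 per kilobase, a comparison chosen after the values were seen, was 8.56, 4.59 and 6.45 in WT and 5.71, 4.04 and 2.61 in Adamts18-/- glands. It was lower on the mutant side of each mouse, by 0.58, 0.18 and 1.31 on the log2 scale, while the groups overlapped. The marker lists nearest to Robo2, those of B and T cells, were picked for this, with root mean square differences of 0.489 and 0.660. That of fibroblasts followed at 0.662. None of these was close, since the nearest list of each other member lay at 0.254 (Schwann cells for Slit3) or less. Summed T cell markers had paired log2 differences of -0.27, -0.61 and 1.39, and those of B cells 0.10, -0.58 and 0.81. Both sums were lower on the mutant side of mouse 2, where the Robo2 values were nearly equal. The part of these cells in the Robo2 values was not tested.

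The netrin receptors Neo1 and Unc5b also differed more between mice than between genotypes, as genes did in general. Over all genes tested the median shares of variance were 67.3% for the mouse and 5.98% for genotype. Neo1 (chr9:58874687-59036441, - strand) measured 100.3, 85.8 and 73.1 CPM in WT and 98.4, 100.1 and 51.3 CPM in Adamts18-/- glands. As with the Slit ligands, the mutant value was higher in mouse 2 and lower in mouse 3, and the log2 fold change was -0.10 (95% interval -0.51 to 0.30, edgeR unadjusted p = 0.528), turning to 0.11 without mouse 3. The macrophage markers given beside the Slits, also the list nearest to Neo1, moved in the same directions in mice 2 and 3. So did the fibroblast genes Dcn, Lum, Dpt, Pdgfra and Fbln1, but not Col1a1, Col1a2 and Col3a1, which were higher in mouse 3. The part of these cells in the Neo1 values was not tested. Unc5b (chr10:60762593-60831581, - strand) measured 17.4, 20.9 and 13.1 CPM in WT and 15.3, 19.3 and 11.6 CPM in Adamts18-/- glands. Its paired differences were the most even of the 9 genes, at -0.19, -0.12 and -0.19, and the log2 fold change was -0.16 (95% interval -0.39 to 0.07, edgeR unadjusted p = 0.128). The 3 mice accounted for 92.3% of the variance of its log2 CPM and genotype for 7.39%.

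**Figure D3:**
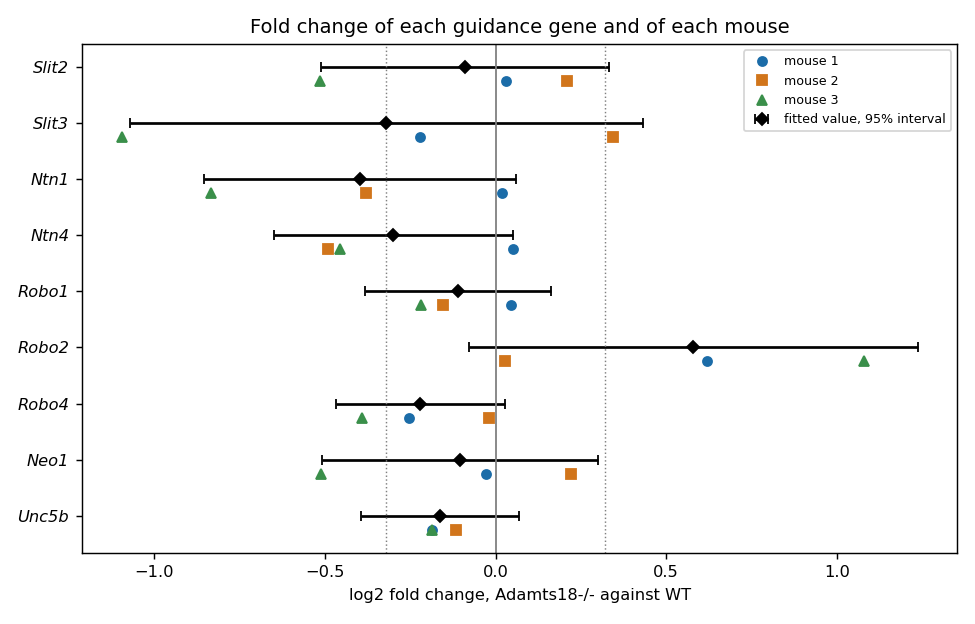
Log2 fold change of each member in Adamts18-/- against WT glands with its 95% interval from the edgeR fit, and the paired difference of each mouse as points. Dotted lines mark the fold changes used for calls. All 9 intervals include 0, with 8 estimates below it and Robo2 at 0.58 above it, whereas after scaling to the pan-epithelial genes, which is not drawn, all 9 estimates lay above 0.

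None of the 9 members passed the thresholds in the edgeR fit, in which 1.84% of all genes tested were called lower and 1.17% higher. Among the members 0 had an unadjusted p under 0.05, against 3.86% of all genes, the adjusted p was 0.987 for each, DESeq2 called 1 lower (Ntn1) and limma-voom called 0. By adjusted p under 0.05 edgeR called 0 of all genes tested, 670 of which had an unadjusted p under 0.05, limma-voom called 0 and DESeq2 called 71. The median log2 fold change was -0.16 over the members, -0.31 over the 4 ligands and -0.11 over the 5 receptors, beside 0.00065 over all genes. With TMM scaling 8 estimates lay below 0, whereas scaling to the 20 pan-epithelial genes moved the median of all genes by 0.46 and put all 9 above 0, with 8 of them still under that median. In that setting Robo2 passed the thresholds at 1.04 (unadjusted p = 0.00206, adjusted p = 0.0701). The groups did not overlap for 0 of 9 members, against 4.94% of all genes. A paired difference of the same sign in all 3 mice was found for 3 of 9 members (Robo4 and Unc5b lower, Robo2 higher), or for 2 with library size scaling, without Robo2, beside 23.4% of all genes, of which 12.7% were lower and 10.8% higher. Over the 4 ligands it was found for 0.

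**Figure D4:**
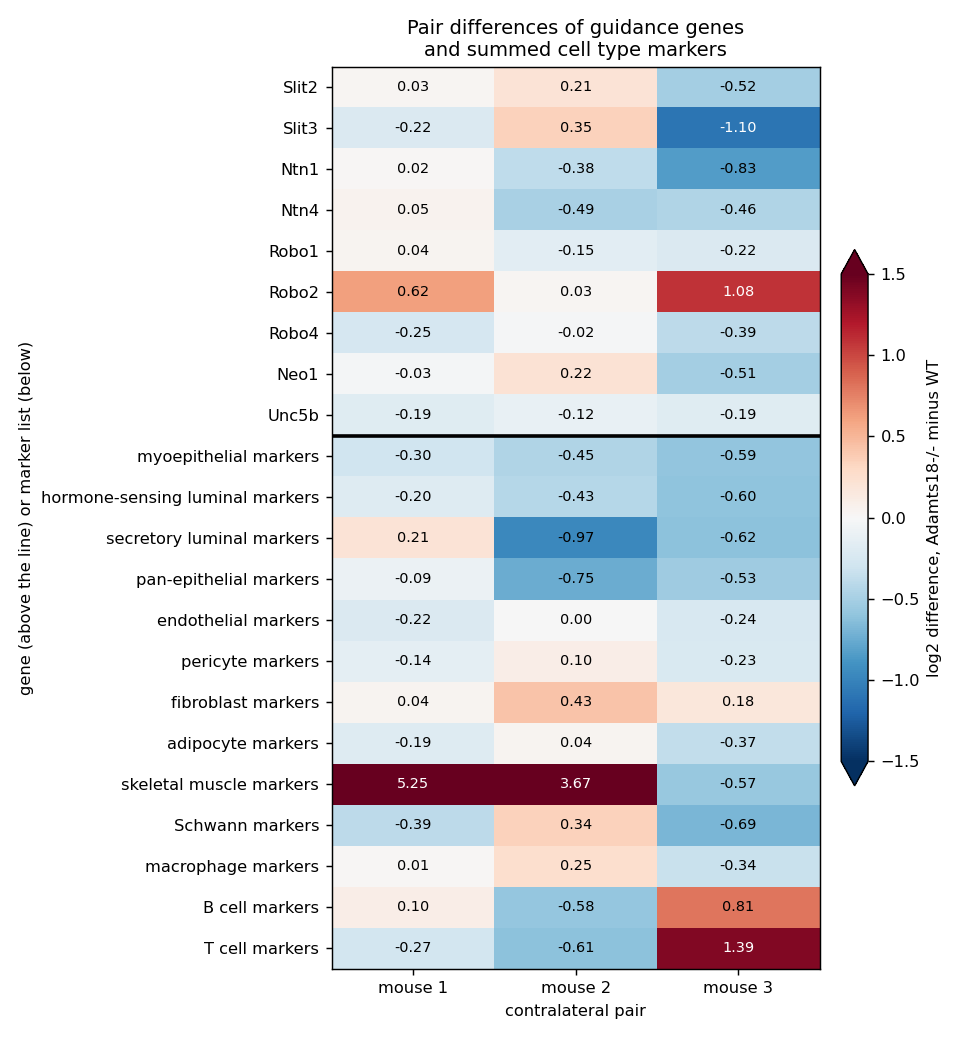
Paired log2 difference (Adamts18-/- minus WT gland, TMM scaling) in each of the 3 mice for the 9 members and the summed markers of the cell types, as a colour map with the value written in each cell and colours that saturate at 1.5 on either side of 0. In mouse 3 all members but Robo2 lie below 0, down to -1.10 for Slit3, whereas in mouse 2 Slit2, Slit3 and Neo1 lie above 0, at 0.21, 0.35 and 0.22.

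The mouse, from which donor and experiment cannot be told apart, carried most of the variance of the members. It accounted for a median of 75.3% over the 9 genes, beside 67.3% over all genes tested. Its share was more than 2 of 3 parts in 7 members, a mark that the median of all genes also passed. The lowest pair mean of 7 members was that of mouse 3, where the mean of both glands was 0.449 of that of mice 1 and 2 for Slit3, 0.604 for Slit2 and Ntn1, 0.640 for Robo4, 0.647 for Neo1, 0.678 for Unc5b and 0.853 for Robo1. The Adamts18-/- gland of mouse 3 was the lowest of the 6 libraries for 7 members. For how many of all genes mouse 3 or this gland was the lowest was not counted. Neither count is therefore shown to be particular to the members. Ntn4 was the exception among the ligands, since the mouse accounted for 0.994% of its variance and genotype for 58.8%, and the pair means of the 3 mice differed little (ratio 0.998). The median SD of log2 CPM was 0.412 over the members and 0.237 over all genes. Mouse 3 was also the host with the lowest adipocyte and endothelial marker sums and the highest T cell marker sum in both glands. Skeletal muscle markers stood apart in other libraries, at 9767 and 9580 CPM in the Adamts18-/- glands of mice 1 and 2 against 257 to 2467 CPM in the other 4. The part of these cells in the members' levels was not tested.

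For the 3 members whose log2 CPM had an SD of at least 0.5, the genes with the nearest centred profile over the 6 libraries were sought among all genes tested, as a description of 6 values each. The nearest to Slit3 were Prrg3, Aebp1 and Thbd, with root mean square differences of 0.110, 0.117 and 0.126 on the log2 scale. Ntn1 had closer neighbours in Frmd7 (0.0534), Mmp27 (0.0639) and Wdr72 (0.0949). Those of Robo2 were the most distant, with Kdm4d at 0.190, Rgs1 at 0.197 and 1700024P16Rik at 0.202.

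The rest of the pathway showed few calls. Of 51 further ligands, receptors, co-receptors and intracellular effectors, 50 were in the table and 47 were tested, of which 25 lay below 0 and 22 above, with a median log2 fold change of -0.01. Of these 1 was called lower and 1 higher, beside 1.84% and 1.17% of all genes, and 3 had an unadjusted p under 0.05. Ntng1, a membrane-anchored netrin, was called lower, at 11.9 ± 3.75 CPM in WT and 7.43 ± 2.01 CPM in Adamts18-/- glands (SD, n = 3), with paired differences of -0.24, -0.84 and -0.93 (log2 fold change -0.67, SE 0.178, edgeR unadjusted p = 0.0146, adjusted p = 0.987). It no longer passed without mouse 2 (-0.59, unadjusted p = 0.0800), without the mouse as a block (-0.68, unadjusted p = 0.0692) or with scaling to the pan-epithelial genes (-0.22, unadjusted p = 0.475). Dscaml1, an adhesion molecule whose relative Dscam binds netrin-1, was called higher (log2 fold change 1.56, SE 0.547, edgeR unadjusted p = 0.0382, adjusted p = 0.987), but its reads were 6, 7 and 23 in WT and 6, 11 and 150 in Adamts18-/- glands, so that the value rests on mouse 3, without which the gene did not pass the filter. It was not called without mouse 2 (1.87, unadjusted p = 0.0536), with DESeq2 (1.33, unadjusted p = 0.101) or without the block (2.19, unadjusted p = 0.150), and with scaling to the pan-epithelial genes it was at 2.02 (adjusted p = 0.00213). The third gene with an unadjusted p under 0.05 was Nck2, an adaptor of the cytoskeleton, at -0.25 (unadjusted p = 0.0274), a fold change short of the threshold and named here after its value was seen.

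The other receptors of the pathway were scarce or similar in level between the groups, except Unc5c and the 2 Dscam genes, which were low and varied widely. Dcc, the classical netrin receptor, had 2 reads over all 6 libraries, Robo3 had 13 and Unc5d had 7, and none of them could be tested. Unc5a measured 18.0 ± 1.61 CPM in WT and 18.1 ± 2.27 CPM in Adamts18-/- glands, and Unc5c 1.61 ± 0.245 and 2.63 ± 1.23 CPM (log2 fold change 0.61, edgeR unadjusted p = 0.120). Slit1, the third Slit, measured 0.646 ± 0.225 and 0.680 ± 0.192 CPM. The 25 intracellular effectors, among them the Slit-Robo GTPase activators Srgap1, Srgap2 and Srgap3, had a median of 0.0013, with 12 below 0 and 13 above, and 0 were called (edgeR, 1 at an unadjusted p under 0.05, Nck2). Hfe2, the hemojuvelin gene and a relative of the Neogenin ligands Rgma and Rgmb, had paired log2 differences of 4.70, 3.68 and -0.45, beside 5.25, 3.67 and -0.57 for the summed skeletal muscle markers, and its log2 fold change was 2.83 (edgeR unadjusted p = 0.0761). Hfe2 is known as a gene of skeletal muscle, and the part of muscle in its values was not tested.

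Semaphorins and ephrins, as other guidance families, were set beside the members. Of 31 semaphorins, plexins and neuropilins, 20 lay below 0 and 0 were called (edgeR, 2 at an unadjusted p under 0.05), with a median of -0.10. Of 22 ephrins and Eph receptors 19 were tested and 18 lay below 0, with a median of -0.19 and 3 called lower, Efna3 (-0.75, unadjusted p = 0.0289), Ephb1 (-0.48, unadjusted p = 0.0231) and Ephb3 (-0.39, unadjusted p = 0.0196), all with an adjusted p of 0.987 and named after their values were seen. With scaling to the pan-epithelial genes none of these 3 was called, at -0.29, -0.03 and 0.06. Efna3 was also not called with DESeq2 (unadjusted p = 0.140), without the block (unadjusted p = 0.177), without mouse 1 (-0.59, unadjusted p = 0.156) or without mouse 2 (-0.73, unadjusted p = 0.120). Ephb1 was not called without the block (unadjusted p = 0.167) or without mouse 1 (-0.46, unadjusted p = 0.120), nor Ephb3 without mouse 2 (-0.36, unadjusted p = 0.0929) or, by its fold change, without mouse 3 (-0.29). A difference between these families and the members was not tested.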

How the data were processed

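RNA of 6 mouse samples (3 WT, 3 Adamts18-/-) was sequenced by the authors as single-end reads of 85 bp. These samples were glands by the study's text and sorted GFP+ cells by the labels, and which was sequenced was not settled here. The authors deposited whole-number counts of reads per gene symbol, not normalised, 1 column per gland. The submitters' processing notes name bcl2fastq 2.18, TopHat2 2.0.11, featureCounts 1.6.2, edgeR and the build mm9. Coordinates are those of the GENCODE M21 annotation of GRCm38, and none was converted. Whether counting used strand is not given in the sources used here. Groups, mice and sides came from the labels, and 0 columns belonged to other samples.

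The quasi-likelihood F-test of edgeR 4.0.16 under R 4.3.3 was fitted to genotype and mouse (as a block), after TMM scaling and filterByExpr with a minimum count of 10. Benjamini-Hochberg adjustment covered the 17345 genes kept. CPM used the TMM factors, and log2 CPM a prior count of 2. As in the study, a gene was called at an unadjusted p below 0.05 if its fold change lay below 0.8 or above the inverse of 0.8. Shares of variance are shares of the sum of squares of log2 CPM. They are not divided by degrees of freedom, of which the mouse has more than genotype, so that random values also favour the mouse. The study gives 3 separate experiments and 3 donors for the profiled pairs. Donor and experiment therefore cannot be told apart from the mouse in the block, and the p-values measure the spread between these pairs. The block rests on the labels, and glands of 1 mouse deviated together (correlations over genes of 0.512, 0.505 and 0.639 for mice 1, 2 and 3). The median biological coefficient of variation was 16.3%. The script was tested on simulated data.

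The members and gene lists were chosen with earlier results of these data known. Named genes were all members, Adamts18, pathway genes past the thresholds, the 3 nearest profiles of members with an SD of at least 0.5, and the 2 most abundant genes of each marker list printed. Other pathway and marker genes in the text were picked with their values in view. The marker lists set beside single members were also picked with their values in view, mostly as those nearest in paired differences. Draxin was not found among the symbols. Alternatives were DESeq2 1.42.0, limma-voom (limma 3.58.1), genotype alone without the block, RLE, library size and pan-epithelial scaling, 2 other filters and each mouse left out in turn.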

Additional observations from a re-analysis of the deposited data

How the results depend on the processing

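The members past the thresholds numbered 0 lower and 0 higher, and both counts stayed at 0 without the replicate block, with limma-voom, RLE and library size scaling and with at least 10 counts in every sample. One member was lower with DESeq2 and 1 with no filter on low counts (Ntn1), and 1 was higher with pan-epithelial scaling (Robo2). Leaving out 1 mouse gave 0 to 2 lower and 0 to 1 higher. Pathway genes numbered 1 lower and 1 higher in the report. The lower count was 0 without the replicate block and 0 with pan-epithelial scaling, and 0 to 2 with a mouse left out. The higher count was 2 with limma-voom, 6 with pan-epithelial scaling, 2 with no filter, 0 with at least 10 counts in every sample, and 0 to 3 with a mouse left out. Members moving the same way in all mice numbered 3, 2 with library size scaling (without Robo2) and 5 with pan-epithelial scaling (4 to 6 where only 2 mice remained). Pan-epithelial scaling moved the median of all genes by 0.46 and gave 32 lower and 2820 higher calls over all genes, and it turned the sign of Slit2 (0.36), Slit3 (0.13), Ntn1 (0.058), Ntn4 (0.16), Robo1 (0.35), Robo4 (0.23), Neo1 (0.35), Unc5b (0.29) and Ephb3 (0.062). Without mouse 3 the sign turned for Slit2, Slit3 and Neo1, whose log2 fold changes ranged from -0.24 to 0.13, from -0.66 to 0.070 and from -0.27 to 0.11 with a mouse left out. Without the replicate block 125 genes were lower and 218 higher, against 319 and 203 with it, and DESeq2 gave 297 and 340, limma-voom 343 and 345, no filter 416 and 352. The cause of these changes was not tested. Depth limited Dscaml1, with 6 to 150 reads, more than the members, with 138 or more reads in each library.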
